A study of Homo sapiens with 6 samples.

Results

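The genes of the structural core of the proteasome and of its 19S cap were examined in HT-1080 cells, an established human fibrosarcoma line, before and after interferon gamma (IFNg). The set was given by symbol: the 7 alpha subunits and the 4 non-catalytic beta subunits of the 20S core, the 6 ATPases and 12 non-ATPase subunits of the 19S cap, 3 chaperones that help to build that cap, the activator PSME4 and the regulator PSMF1. All 34 symbols were found among the 17187 genes of the deposited table, and all 34 passed the filter on low values. The catalytic beta subunits and the PA28 caps were not in the set and are described separately at the end. RNA was sequenced from 3 control libraries, given PBS, and 3 libraries of cells given recombinant IFNg at 10 ng/ml for 8 h. The genotype of both groups is labelled WT, and every library comes from the same line. Whether each library had its own culture is not given by the labels, so p-values here describe the spread among these 6 libraries, part or all of which may be technical.

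The proteasome is the protease that degrades most ubiquitin-tagged protein in the cell. Its 20S core is a barrel of stacked rings, with alpha subunits in the outer rings, where their tails close the entry gate, and beta subunits in the inner rings, where only some are catalytic. The 19S cap sits on the alpha ring. It captures ubiquitin chains, removes them, unfolds the substrate with a ring of ATPases and feeds it through the gate. IFNg is known for replacing the catalytic beta subunits by inducible ones, which makes the immunoproteasome, and for raising PA28, another cap of the alpha ring. Both changes serve the supply of peptides to MHC class I. The structural core subunits and the 19S cap are shared by the standard and the inducible form.

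The 6 libraries held 59556948 to 83501954 reads. Values are normalised read counts, that is, reads divided by 1 size factor per library, and 1 read was worth 0.835 to 1.16 of them. The 34 genes took 0.51% to 0.559% of a control library's reads and 0.529% to 0.57% of an IFNg library's. All 5 mesenchymal markers were abundant, with a summed level of 535200 to 615500 in control and 494600 to 591400 in IFNg libraries. The 2 epithelial markers measured summed to 24.8 to 78.0 over the 6 libraries, the 4 leucocyte markers to 125 to 176, and the 4 endothelial markers to 42.9 to 99.2. KRT5, CD3E and CD14 were at 0 in all 3 control libraries and CDH5 in all 3 IFNg libraries. EPCAM, CDH1 and KRT14 were not analysed here. As a check of the treatment, IRF1, a transcription factor that IFNg induces, had normalised read counts of 395, 482 and 995 in control and 26296, 28118 and 30650 in IFNg libraries. The 2 groups were far apart.

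Of the 34 genes, 3 rose after IFNg, none fell, and 31 did not pass the test. The 3 that rose were PSMA3, PSMA4 and PSMA6, all of the alpha ring. The test was limma on log2(value + 1), 2-sided, with Benjamini-Hochberg adjustment at 0.05 over 15546 genes. The share that rose was 8.82% of the 34, against 3.27% of all genes tested and 4.36% of the 6852 genes at least as abundant as the lowest of the 34. Among all genes tested 1.05% fell. Beside the 0 that fell in limma, 2 had a lower level at an unadjusted p under 0.05 (PSMC5 and PSMD9) and 5 a higher one. Over all 15546 genes these counts were 1004 and 1369. edgeR and DESeq2 also called none of the 34 lower. In bulk RNA a change in the number of cells of a kind and a change in RNA per cell cannot be told apart.

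Most of the set moved little. Of the 34 differences 21 were positive and 13 negative, with 17 positive under upper quartile scaling. With 1 library left out the number of positive differences ran from 15 (without IFNg 3) to 24 (without control 3). The median log2 difference (IFNg minus control) was 0.02 over the 34 genes and -0.01 over all genes tested. The median size of the difference, whatever its sign, was 0.099 over the 34 and 0.20 over all. It was 0.12 over the 6852 genes at least as abundant as the lowest of the 34. These 6852 were not otherwise matched to the 34 in level. All 3 IFNg libraries lay above all 3 control libraries for 8 of the 34 genes, or 23.5%, against 10.7% of all genes tested. They lay below for 5, or 14.7%, against 9.28%. The groups overlapped for the other 21. The intervals were narrow. For 30 of the 31 genes that did not pass, the 95% interval of the fold lay within 1.5-fold either way, PSMD9 being the exception.

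**Figure D1:**
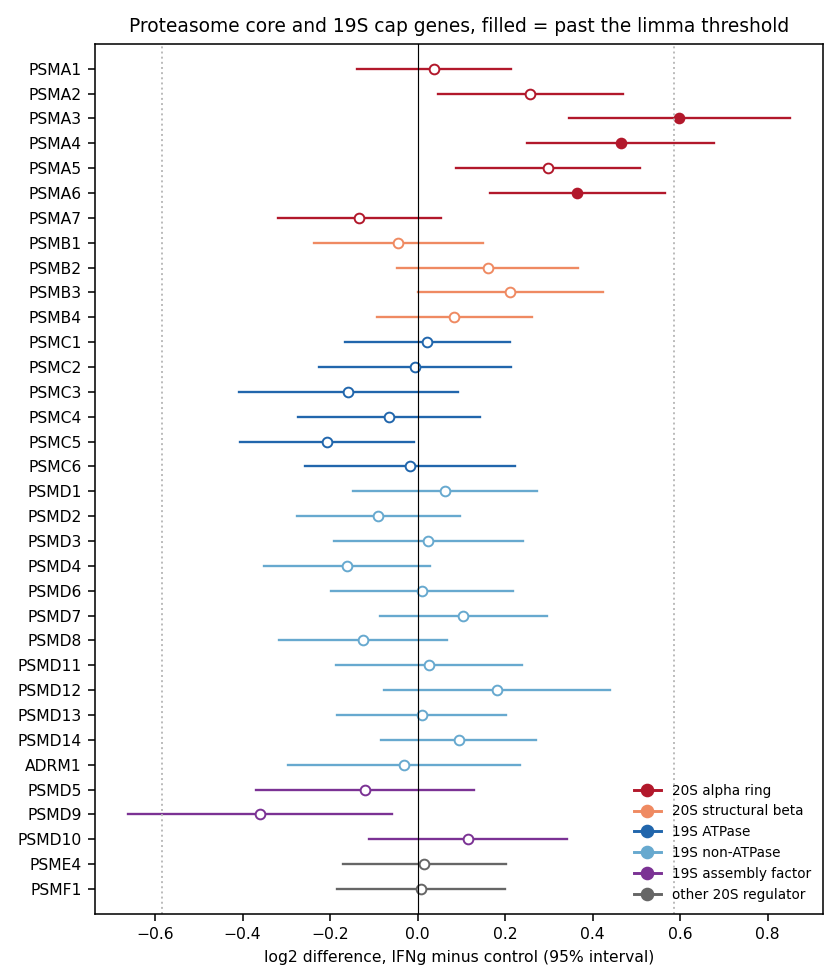
Log2 difference (IFNg minus control, horizontal axis) of each of the 34 genes (vertical axis), coloured by role, with the limma 95% interval as a line. Filled points are past the adjusted threshold and dotted lines mark a 1.5-fold change; the 3 filled points are PSMA3, PSMA4 and PSMA6, and PSMD9 is the only open point whose interval crosses a dotted line.

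The DNA upstream of the 3 genes that rose is shown because these are the members with a called change. Each is the 250 bases before the most upstream start listed in the RefSeq promoter table (GRCh38.p14, all on the plus strand): chr14:58244593-58244842 for PSMA3, chr15:78540155-78540404 for PSMA4 and chr14:35292067-35292316 for PSMA6. The submitters' processing notes name hg19 and GRCh37, so these coordinates are not those of the authors' alignment. Capitals mark matches to the motifs searched.
PSMA3: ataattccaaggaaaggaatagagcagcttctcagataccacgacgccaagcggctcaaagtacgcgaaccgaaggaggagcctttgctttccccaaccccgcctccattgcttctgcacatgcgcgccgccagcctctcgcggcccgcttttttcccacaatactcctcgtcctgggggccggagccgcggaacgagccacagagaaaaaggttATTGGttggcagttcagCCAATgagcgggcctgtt
PSMA4: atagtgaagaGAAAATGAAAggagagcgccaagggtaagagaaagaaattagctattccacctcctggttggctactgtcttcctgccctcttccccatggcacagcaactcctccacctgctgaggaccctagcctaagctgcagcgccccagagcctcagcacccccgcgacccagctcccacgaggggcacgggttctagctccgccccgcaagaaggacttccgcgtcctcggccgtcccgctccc
PSMA6: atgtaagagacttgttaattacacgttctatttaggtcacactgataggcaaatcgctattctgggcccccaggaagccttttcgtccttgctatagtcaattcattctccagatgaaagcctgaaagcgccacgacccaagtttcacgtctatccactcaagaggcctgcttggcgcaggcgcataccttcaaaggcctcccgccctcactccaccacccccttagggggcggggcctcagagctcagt
PSMA3 holds 2 CCAAT boxes, in the orders ATTGG and CCAAT, whose leftmost bases lie at -35 and -18 from the start. PSMA4 holds 1 match to the interferon response core, which is GAAA, any 2 bases and GAAA again, whose leftmost base lies at -240. PSMA4 has 3 listed windows, and only the one shown holds this core, while another holds a CCAAT box. PSMA6 holds no match to any motif searched in either of its 2 listed windows.

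Of the 34 genes, 31 had a promoter window of 300 bases (250 before to 50 after the start), and PSMB1, PSMD4 and PSMA7 had none. Matches were counted on both strands and over all windows of a gene, beside the share of 27305 genes with a window. The antioxidant response core TGACNNNGC, the kind of element bound by NFE2L1, the factor known to raise proteasome genes as a group when the proteasome is inhibited, was present in 11 of the 31 (35.5%), against 16.1% of all genes. These 11 were PSMA4 (in a window further downstream than the one shown), PSMB3, PSMC4, PSMC5, PSMD1, PSMD3, PSMD12, ADRM1, PSMD5, PSMD9 and PSME4. The gamma-activated site TTCNNNGAA, an element of IFNg-responsive promoters, was present in PSMA2, PSMC4, PSMD2 and PSMD3 (12.9%, against 9.38%), none of which passed the test. The interferon response core was present in PSMA4 and PSMB4 (6.45%, against 4.38%). The CCAAT box was present in 16 (51.6%, against 39.7%). A match describes the letters of the window and is not evidence of binding.

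The alpha ring carried the called changes. Its 7 genes encode the ring that gates the core. Of the 7, 6 had a positive difference, against 7436 of all 15546 genes tested. The median log2 difference over the 7 was 0.30, with a range of -0.13 to 0.60. All 3 IFNg libraries lay above all 3 control libraries for 5 of the 7 (PSMA2, PSMA3, PSMA4, PSMA5 and PSMA6) and below for PSMA7. Over all genes tested 10.7% lay above and 9.28% below in this way.

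PSMA3 had the largest difference of the 34. Its normalised read counts were 6545, 5242 and 5805 in control 1, 2 and 3 and 7988, 8556 and 10117 in IFNg 1, 2 and 3. The lowest IFNg library was above the highest control library, and IFNg 3 was the highest of all. The log2 difference was 0.60 ± 0.12 (standard error), a fold of 1.51 with a 95% interval of 1.27 to 1.80 (limma adjusted p = 0.0105). The call was lost without control 2, the lowest control (adjusted p = 0.0718), and without the intensity trend in limma (adjusted p = 0.157), while the log2 difference stayed between 0.50 and 0.68 over the 19 alternatives. GENCODE names 1 pseudogene of PSMA3, with which reads could be shared.

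PSMA4, whose tail is a main part of the closed gate, had 8786, 7880 and 8871 in control and 11160, 11039 and 13081 in IFNg libraries. Again the groups did not overlap and IFNg 3 was the highest. The log2 difference was 0.46 ± 0.10, a fold of 1.38 (95% interval 1.19 to 1.60, limma adjusted p = 0.0184). The call was lost when some single libraries were left out. Without control 2, IFNg 1, IFNg 2 or IFNg 3 in turn the adjusted p was 0.118, 0.0617, 0.0523 and 0.0717, and without the trend it was 0.169. The direction held in all 19 alternatives, at 0.38 to 0.51.

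PSMA6 had 10651, 10068 and 9743 in control and 12657, 12267 and 14385 in IFNg libraries. The groups did not overlap. The log2 difference was 0.37 ± 0.09, a fold of 1.29 (95% interval 1.12 to 1.48, limma adjusted p = 0.0466), which is just past the threshold. The adjusted p was 0.05002 in edgeR and 0.0129 in DESeq2, 0.0596 with upper quartile scaling, 0.232 without the trend and 0.071 to 0.191 when any library but control 3 was left out. GENCODE names 4 pseudogenes of PSMA6 and a readthrough transcript, AL121594.1, that shares 919 exonic bases with it on the same strand, so its reads may not all be its own.

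The other 4 alpha genes did not pass. PSMA5 had 6114, 5265 and 5646 in control and 6578, 7021 and 7317 in IFNg libraries, so that every IFNg library lay above every control library. Its log2 difference was 0.30 ± 0.10, a fold of 1.23 with a 95% interval of 1.06 to 1.42 (limma adjusted p = 0.13). With a term for libraries numbered 3 PSMA5 passed (limma adjusted p = 0.0302). PSMA2 was similar in size, at 6774 ± 360 in control and 8110 ± 686 in IFNg libraries (mean ± SD, n = 3 each), a log2 difference of 0.26 ± 0.10 (limma adjusted p = 0.21). PSMA1 was nearly level, at 13286 ± 446 and 13630 ± 188, with a 95% interval of the fold of 0.91 to 1.16. PSMA7 went the other way, at 10806 ± 397 and 9855 ± 488, a log2 difference of -0.13 ± 0.09 (limma adjusted p = 0.522). No test compared one alpha gene with another, and the intervals of PSMA3, PSMA4 and PSMA6 overlap those of PSMA2 and PSMA5. In GENCODE PSMA2 has 3 named pseudogenes and shares 781 exonic bases with AC010132.3 on the same strand. PSMA1 shares 814 such bases with AC018523.2. The reads of PSMA1 and PSMA2 may therefore not all be their own.

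**Figure D2:**
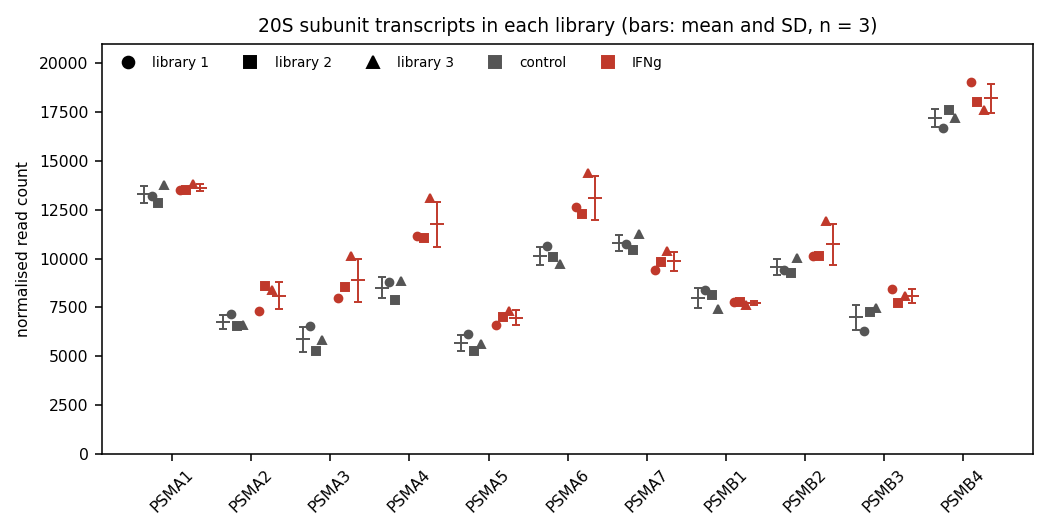
Normalised read count (vertical axis) of the 7 alpha and 4 structural beta genes in each library, control in grey and IFNg in red, with a marker shape for each library number and the mean and SD (n = 3) beside them. IFNg points lie wholly above control points for PSMA2, PSMA3, PSMA4, PSMA5, PSMA6, PSMB2 and PSMB3, and wholly below for PSMA7.

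The 4 structural beta genes encode ring members that shape the inner chamber without cutting peptides. None passed the limma test and none had an unadjusted p under 0.05. Their median log2 difference was 0.12, with a range of -0.04 to 0.21. PSMB3 had the largest, at 7005 ± 637 in control and 8097 ± 363 in IFNg libraries (fold 1.16, 95% interval 0.9999 to 1.34, limma adjusted p = 0.328). PSMB2 was at 9569 ± 399 and 10723 ± 1042. For both genes every IFNg library lay above every control library, as for 10.7% of all genes tested. PSMB4, which had the highest read count of the 20S genes (not corrected for length), had 16701, 17625 and 17221 in control and 19031, 18035 and 17592 in IFNg libraries. Its highest control library lay above its lowest IFNg library, and the interval of the fold was 0.94 to 1.198 (limma adjusted p = 0.703). PSMB1 was at 7979 ± 504 and 7729 ± 105.

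The 19S cap had no called change. Over its 18 ATPase and non-ATPase genes 9 differences were positive and 9 negative, with a median of 0.00 and a range of -0.21 to 0.18. None passed in limma, edgeR or DESeq2, and 1 (PSMC5) had an unadjusted p under 0.05 in limma. Whether the cap and the alpha ring differ was not tested.

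The 6 ATPases form the ring that pulls substrates into the core, and their median log2 difference was -0.04. PSMC5 had the largest, at 8552 ± 546 in control and 7401 ± 331 in IFNg libraries, and all its IFNg values lay below its control values (-0.21 ± 0.09 in log2 difference, limma adjusted p = 0.30). In GENCODE its exons share 874 bases with FTSJ3 on the opposite strand. PSMC3, whose tail docks into the alpha ring, was at 5891 ± 848 and 5250 ± 338, where the control SD exceeded the difference. PSMC2 had the smallest difference of the 34: it had 7407, 7180 and 8371 in control and 7472, 7067 and 8322 in IFNg libraries. The 2 groups covered nearly the same range, and the interval of the fold was 0.86 to 1.16. PSMC1 (11843 ± 196 and 12043 ± 843), PSMC4 (12116 ± 1222 and 11549 ± 540) and PSMC6 (4975 ± 624 and 4891 ± 212) also overlapped between groups. PSMC1 has 13 named pseudogenes in GENCODE and shares 4671 exonic bases with NRDE2 on the opposite strand, so its level is uncertain.

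The 12 non-ATPase genes ranged from -0.16 to 0.18 in log2 difference, with a median of 0.02. PSMD2, the scaffold to which ubiquitin shuttles dock, had the highest read counts of the set, again not corrected for length: 61387, 66754 and 68644 in control and 60241, 61403 and 62992 in IFNg libraries. Control 1 lay among the IFNg libraries, and the interval of the fold was 0.83 to 1.07. PSMD1, the other large scaffold, was at 16050 ± 1331 and 16763 ± 1441. Of the ubiquitin receptors, PSMD4 was at 8027 ± 239 in control and 7182 ± 300 in IFNg libraries, without overlap (log2 difference -0.16 ± 0.09, limma adjusted p = 0.431). ADRM1, the receptor that anchors the deubiquitinase UCHL5, was at 6682 ± 1150 and 6473 ± 142. PSMD14, the deubiquitinase of the cap itself, was at 11990 ± 334 and 12794 ± 347, again without overlap and without a call (log2 difference 0.09 ± 0.08). Its inactive partner PSMD7 was at 8933 ± 201 and 9616 ± 604.

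The other 6 non-ATPases are scaffold subunits of the lid. PSMD12 had the largest positive difference of the cap, at 7590 ± 802 in control and 8632 ± 1257 in IFNg libraries, but its libraries overlapped. PSMD8 lay lower in every IFNg library, at 10454 ± 748 and 9574 ± 54.8 (log2 difference -0.12 ± 0.09, limma adjusted p = 0.572). PSMD13 was among the 3 genes with the smallest difference, with 10756, 10888 and 11901 in control and 11308, 10596 and 11856 in IFNg libraries. The interval of its fold was 0.88 to 1.15. PSMD3, PSMD6 and PSMD11 had log2 differences of 0.01 to 0.03 with overlapping groups.

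The 3 chaperones of the cap hold ATPase pairs while the cap is built and leave before it is finished. They had the 3 lowest mean read counts of the set, not corrected for length. PSMD9 had the largest negative difference of the 34: 1893, 2154 and 1721 in control and 1373, 1455 and 1659 in IFNg libraries. Every IFNg library lay below every control library, although control 3 and IFNg 3 were close. The log2 difference was -0.36 ± 0.14, a fold of 0.78 with a 95% interval of 0.63 to 0.96 (limma adjusted p = 0.221). Without both libraries numbered 3 the log2 difference was -0.51 and the adjusted p 0.0326. PSMD9 shares exons on the same strand with WDR66, so that its reads may not all be its own. PSMD5 had 2617, 2652 and 2441 in control and 2294, 2210 and 2602 in IFNg libraries. Its groups overlapped through IFNg 3, and the interval of the fold was 0.77 to 1.09. PSMD10 had 3062, 3088 and 3426 in control and 3555, 3521 and 3282 in IFNg libraries. It overlapped too, with an interval of 0.93 to 1.27.

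PSME4, an alternative activator of the core found mainly in the nucleus, had 20594, 19503 and 19663 in control and 19229, 19462 and 21790 in IFNg libraries. Its highest and its lowest library were both IFNg libraries, and the interval of its fold was 0.89 to 1.15. PSMF1, which binds the core and inhibits it in vitro, had 6084, 5959 and 6249 in control and 6020, 6361 and 6013 in IFNg libraries. The interval of the fold was 0.88 to 1.15. Neither gene differed between the groups by more than the spread between libraries.

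Libraries numbered 3 stood apart over the set. Of the 34 genes, 21 had their highest control value in control 3, 22 had their highest IFNg value in IFNg 3, and 15 had both. How many of all genes did so was not counted. Libraries numbered 3 also stood apart over the genes with enough reads to compare. Chi-square per degree of freedom was 120 and 97.5 for pairs with control 3, against 42.3 for control 1 and 2. It was 64.8 and 60.1 for pairs with IFNg 3, against 16.2 for IFNg 1 and 2. The share of reads held by the set was also highest in control 3 (0.559%) and in IFNg 3 (0.57%). Set against each gene's control mean, the median log2 deviation of the 12 non-ATPases was -0.05, -0.03 and 0.09 in control 1, 2 and 3 and -0.05, 0.01 and 0.10 in IFNg 1, 2 and 3. That of the alpha ring was 0.07, -0.05 and -0.00 in control and 0.22, 0.31 and 0.37 in IFNg libraries. The ATPases had -0.01, -0.09 and 0.07 and then -0.06, -0.12 and -0.02. The 4 structural beta genes had -0.03, 0.03 and 0.04 in control and 0.11, 0.08 and 0.12 in IFNg libraries. By these medians the alpha ring and, by less, the structural beta genes set the groups apart. The non-ATPases set library 3 apart from the rest of its own group, and the ATPases too were highest in library 3 of both groups. The alpha median in part restates the calls, because PSMA3, PSMA4 and PSMA6 are among its 7 genes. It is therefore not separate evidence of a change. Nor does it hold for each alpha gene: PSMA1 overlapped between the groups, and PSMA7 lay lower in the IFNg libraries without a call. Without both libraries numbered 3 the log2 differences of PSMA3, PSMA4 and PSMA6 were 0.50, 0.42 and 0.27, with limma adjusted p of 0.00857, 0.00553 and 0.0449.

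**Figure D3:**
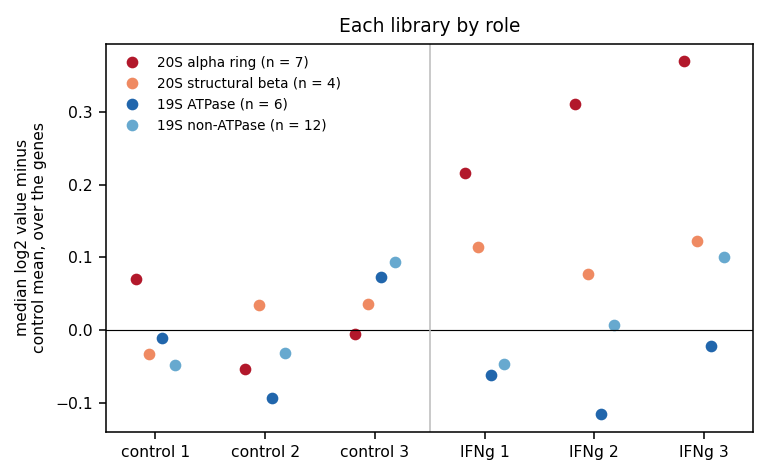
Median over the genes of a role of the log2 value minus the gene's control mean (vertical axis) in each of the 6 libraries (horizontal axis); each point is 1 role in 1 library. The alpha ring lies at 0.22 to 0.37 and the structural beta genes at 0.08 to 0.12 in the IFNg libraries. The non-ATPases and the ATPases each have their highest point within a group in control 3 and IFNg 3.

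The spread within groups was small. The coefficient of variation of a gene within its group had a median of 6.01% over the 34 genes and both groups, with a range of 0.572% (PSMD8 in IFNg) to 17.2% (ADRM1 in control). Standard errors of the log2 differences ran from 0.08 (PSMA1) to 0.14 (PSMD9).

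To compare levels between genes, values were taken per length, as normalised read count per kb of the principal transcript in GENCODE. By this measure PSMD2 (19018 ± 1091 in control) and PSMB4 (17824 ± 481) led the set and differed by little more than 1 SD. PSMA7 (10849 ± 399) and PSMA6 (9868 ± 447) followed. PSMB3 (9062 ± 824), PSMA1 (8828 ± 296) and PSMB1 (8598 ± 543) came next, and these 3 lay within 1 SD of each other. PSMA3 was at 6046 ± 674, PSMA2 at 4555 ± 242 and PSMB2 at 3543 ± 148. PSMA4 (1930 ± 124) and PSMA5 (1522 ± 114) were the lowest of the core. The chaperones PSMD5 (746 ± 32.8) and PSMD9 (691 ± 78.3) were the lowest of all 34. The genes of the 20S core, which enter the particle in equal copies, thus spanned 11.7-fold in control cells, or 14.2-fold with the merged length of all annotated exons.

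The order within the core depends on the length taken. The principal transcripts of PSMA4 and PSMA5 are 4.411 and 3.729 kb long, against 0.97 to 1.505 kb for the other alpha genes. A shorter length would give these 2 genes a higher level per kb, and which of their transcripts these cells make was not measured here. In IFNg libraries PSMA6 was at 12734 ± 1095 per kb and PSMA7 at 9895 ± 490, the reverse of their order in control by this length. With the merged exon length PSMA6 already led in control (7056 against 6891 per kb).

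**Figure D4:**
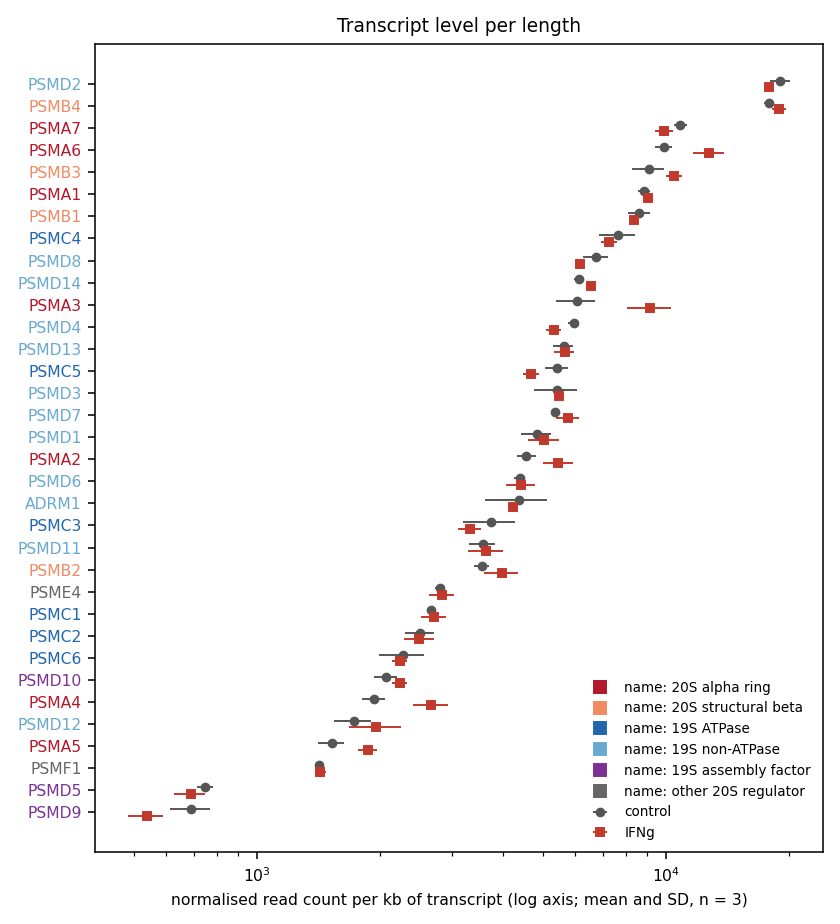
Normalised read count per kb of principal transcript (log axis; mean and SD, n = 3) of the 34 genes in control (grey) and IFNg (red), ordered by the control mean, with gene names coloured by role. PSMD2 and PSMB4 lie highest, at 19018 and 17824 in control, and PSMD5 and PSMD9 lowest, at 746 and 691.

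The rest of the pathway was followed in 46 genes, of which 45 passed the filter. Of these, 6 rose and none fell (13.3% against 3.27% of all genes tested). At an unadjusted p under 0.05 in limma, 2 were lower and 9 higher, against 1004 and 1369 of all 15546 genes tested. edgeR and DESeq2 called none of the 45 lower. Of the inducible catalytic subunits, PSMB8 rose from 1739 ± 210 in control to 8896 ± 322 after IFNg (log2 difference 2.36 ± 0.11, limma adjusted p = 4.72e-08). PSMB9 rose from 481 ± 73.7 to 6084 ± 393, a log2 difference of 3.67 ± 0.14 (limma adjusted p = 1.12e-08). PSMB10 rose from 730 ± 57.6 to 3988 ± 249, a log2 difference of 2.45 ± 0.13 (limma adjusted p = 1.25e-07). These are the subunits that replace the standard ones in the immunoproteasome.

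The standard catalytic subunits did not pass. PSMB5 was at 11322 ± 612 and 10380 ± 462, PSMB6 at 4493 ± 299 and 3995 ± 412, and PSMB7 at 11125 ± 522 and 10683 ± 329. All 3 differences were negative, at -0.12, -0.17 and -0.06, and all 3 pairs of groups overlapped. Per kb of the principal transcript, PSMB8 (7915 ± 287) and PSMB9 (7780 ± 502) in IFNg libraries came close to PSMB5 (8021 ± 357). Both lay below PSMB7 (10901 ± 336) and above PSMB6 (4689 ± 483). PSMB10 (3274 ± 204) lay below all 3 standard subunits. The closeness of PSMB8 to PSMB5 depends on the length taken. The principal transcript and the merged exons are 1.124 and 1.549 kb for PSMB8. They are 0.782 and 0.921 kb for PSMB9 and 1.294 and 1.464 kb for PSMB5. With the merged length PSMB8 would lie further below PSMB5, and below PSMB9. In control PSMB8, PSMB9 and PSMB10 were at 1547 ± 187, 615 ± 94.3 and 599 ± 47.3.

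Of the PA28 genes, PSME1 rose from 4810 ± 379 to 11176 ± 590 (log2 difference 1.22 ± 0.10, limma adjusted p = 5.64e-06). Its partner in the cytoplasmic cap, PSME2, rose from 3832 ± 97.1 to 10918 ± 865 (log2 difference 1.51 ± 0.09, limma adjusted p = 7.29e-07). The nuclear form PSME3 was at 13681 ± 1960 and 16128 ± 2120 and did not pass. It was highest in library 3 of both groups, and it passed with a term for libraries numbered 3. UBA6, an enzyme that activates ubiquitin and the ubiquitin-like protein FAT10, rose from 17768 ± 2051 to 25417 ± 880 (log2 difference 0.52 ± 0.10, limma adjusted p = 0.00757). The UBA6 call was lost without control 2, IFNg 1 or IFNg 2 in turn (adjusted p = 0.0509, 0.0548 and 0.0583) and without the trend (adjusted p = 0.133).

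The 3 called alpha genes had folds of 1.29 to 1.51, and the 5 called inducible and PA28 genes folds of 2.33 to 12.7. The 5 chaperones that assemble the 20S core all had positive differences, with a median of 0.15. Of all 15546 genes tested, 7436 had a positive difference. None of the 5 passed in limma, though 2 (PSMG2 and POMP) had an unadjusted p under 0.05. POMP passed in limma with a term for libraries numbered 3. POMP, which matures the new core, was at 8949 ± 679 and 11050 ± 774 (log2 difference 0.30 ± 0.09, limma adjusted p = 0.113). The genes of the NFE2L1 axis, which controls proteasome genes together, had a median of -0.03, with 3 of the 6 differences positive and 3 negative. MAFK, a small Maf partner of NFE2L1 named after its values were seen, was at 3059 ± 403 in control and 2317 ± 154 in IFNg libraries, without overlap (log2 difference -0.39 ± 0.13, limma adjusted p = 0.122), and passed with a term for libraries numbered 3. NFE2L1 itself was at 31654 ± 2317 and 29495 ± 705. The 5 genes of the p97 segregase, which extracts ubiquitin-tagged substrates for the proteasome, ranged from -0.08 to 0.17 with no call.

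**Figure D5:**
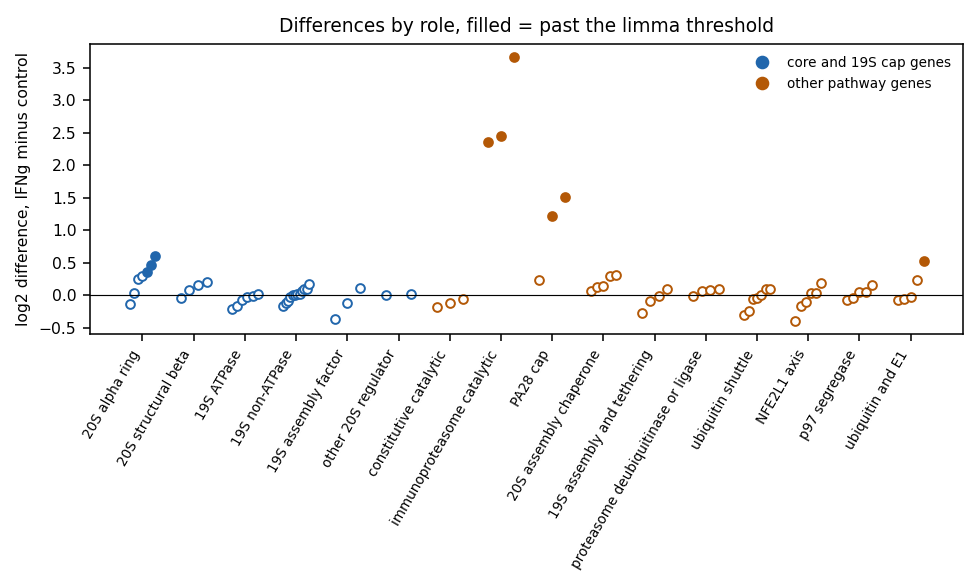
Log2 difference (IFNg minus control, vertical axis) of each gene by role (horizontal axis), with the structural core and 19S cap in blue and other pathway genes in orange; filled points are past the adjusted limma threshold. The inducible catalytic subunits lie at 2.36 to 3.67 and the called PA28 genes at 1.22 and 1.51, whereas the 34 genes lie between -0.36 and 0.60.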

How the data were processed

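RNA of HT-1080 cells was measured in 6 libraries, 3 per group. Per the labels' protocols, ribosomal RNA was removed from DNase-treated total RNA, and stranded libraries were sequenced from paired ends. Builds hg19 and GRCh37 and the tools Cuffdiff 2.2.1, Cufflinks, TopHat2 2.0.13 and FastQC 0.11.3 are listed in the submitters' processing notes. How reads were counted, and whether by strand, is not given in the sources used, so overlapping genes and pseudogenes are uncertain.

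The deposited signal is named RPKM, but 100% of its values above 0 were whole numbers of reads times a constant of the library (tolerance 0.001 reads). It is therefore reads divided by a size factor, not by length. limma, chosen for RPKM, was kept as the main test. The model (limma 3.58.1, R 4.3.3) took log2(value + 1), an intensity trend and group as its term. Genes with a value of 0.5 in at least 3 libraries were kept (15546 kept, 1641 removed). The pseudocount understates changes of low genes. Intervals are 95% limma intervals, and depth per library is given with the results. edgeR 4.0.16 and DESeq2 1.42.0 were run on the recovered reads. The alternatives changed the pseudocount, filter, trend, scaling or libraries. The limma step was tested on simulated data. Lengths, pseudogenes and overlaps came from GENCODE v29.

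The genes and lists were chosen with earlier results of these data known. Values in every library were printed for called genes, the 5 largest and 3 smallest differences, the 3 highest and 3 lowest levels, and genes whose call changed with edgeR, DESeq2 or without libraries numbered 3. Of other pathway genes, called ones and PSMB5 to PSMB10 were named, with IRF1 as a check of the treatment. Other genes were named after their values were seen. Counts of libraries of 1 group differed by more than counting error (chi-square 16.2 to 120 per degree of freedom), so none was treated as a repeat deposit of another; this does not show separate cultures. PSMA8 and RPS27A were not analysed here, and a few items are not reported here.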

Additional observations from a re-analysis of the deposited data

How the results depend on the processing

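Over 19 alternatives the number of the 34 genes that rose was 3 or 2 under every change of pseudocount, filter or scaling and in edgeR and DESeq2, and it was 0 without the intensity trend. With libraries left out it ranged from 0 (without control 2) to 3. The number that fell ranged from 0 to 1 (PSMD9, without both libraries numbered 3). The number of other pathway genes that fell ranged from 0 to 1 (ZFAND5) with libraries left out and was 2 with a term for libraries numbered 3. The cause was not tested. The median log2 difference of the 34 ranged from -0.0297 (without IFNg 3) to 0.0614. No scaling moved the median of all genes past -0.032.

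Of the 31 genes not called, 12 changed sign under some alternative. In the main fit each of these 12 had a difference of at most 0.0655 in size. With upper quartile scaling PSMD6, PSMD13, PSME4 and PSMF1 became -0.00827, -0.00983, -0.00359 and -0.0111. With libraries left out the differences ranged from -0.0346 to 0.0581 for PSMC1, -0.0714 to 0.0601 for PSMC2, -0.127 to 0.0248 for PSMC4, -0.112 to 0.0701 for PSMC6, -0.00621 to 0.127 for PSMD1, -0.0537 to 0.118 for PSMD3, -0.0416 to 0.0751 for PSMD6, -0.0521 to 0.0846 for PSMD11, -0.0293 to 0.0549 for PSMD13, -0.171 to 0.0819 for ADRM1, -0.051 to 0.0483 for PSME4 and -0.019 to 0.0395 for PSMF1.

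Same-numbered libraries were not treated as pairs, because the labels do not say that a number marks a shared culture or day. The correlations of their deviations from the group means were 0.0437, 0.0209 and 0.111. Those of differently numbered libraries ran from -0.0678 to 0.0289, and not every library correlated best with its own number. Whether the numbers mark pairs was not tested. With the replicate number as a block, 4 of the 34 genes rose (PSMA5 added, limma adjusted p = 0.0401), 8 other pathway genes rose (POMP among those added) and 2 fell (MAFK among them), and 915 and 549 genes rose and fell over all, against 509 and 163. With a term for libraries numbered 3, PSMA5 also passed (0.0302), 9 other pathway genes rose (POMP and PSME3 among those added), and the totals were 966 and 573. Without 1 library the totals ranged from 330 to 847 higher and 37 to 455 lower, without both libraries numbered 3 they were 882 and 599, and without the trend they were 279 and 41. DESeq2 called 332 lower.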
